A study of Mus musculus with 74 samples.

Results

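The binding sites of Gm13157 were taken from its ChIP-seq sample in F9 EC cells, a mouse embryonal carcinoma line. They are the rows of the deposited peak table under that name, 443 of the 53011 peaks of 67 KRAB-ZFPs. Gm13157 carried an N-3XFLAG tag, was overexpressed from a stably integrated vector in a pool of selected cells and was precipitated with the FLAG antibody F1804. The 17 other FLAG-tagged KRAB-ZFPs in F9 cells, with 20285 peaks in all, shared the cell line, tag, antibody, alignment and controls, which were an F9 input and a FLAG ChIP labelled FLAG_control. With 1 sample per KRAB-ZFP there was no error between replicates, and the intervals given are exact 95% binomial intervals that cover counting error only. The library depths were not known, and a site without a peak was a site below the thresholds of the peak calling (p under 1e-10 and enrichment over 20 for Gm13157). Sites were sought in the mm9 assembly, and whether the F9 genome holds each of them was not tested. The paper describes IAP retrotransposons as highly polymorphic between inbred strains.

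KRAB-ZFPs are repressors that read DNA with an array of C2H2 zinc fingers and recruit the corepressor KAP1 (Trim28) through their KRAB domain. Many of them bind endogenous retroviruses, which KAP1 and its partner Setdb1 mark with H3K9me3 in embryonic cells. IAP elements are mouse endogenous retroviruses that still move, and an intact provirus carries a long terminal repeat (LTR) at each end, both on the same strand, while recombination between both ends leaves a solitary LTR. Gm13157 is encoded on the minus strand of chromosome 4 at chr4:147128083-147183895 (mm9, protein-coding, ENSMUSG00000078495.3), and its nearest own peak lay 119046 bp away.

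The study cloned a 39-bp stretch of an IAPLTR4 element as a reporter site for Gm13157. Since that site was picked as a target of this protein, its presence in the peaks is a description and no independent evidence. It is shown here because the results turn on it, with capitals at the 5 bases where a substitution carried by at least 10 genomic copies went with peaks at fewer than 50% of those copies. Positions are counted from 1 at the left end.
Reporter site: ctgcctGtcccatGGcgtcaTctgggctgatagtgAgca
The 200-bp window of the peak with the largest fold, at chr5:138645993-138646192 (minus strand, in an intron of Gm454), shows the site in capitals within its repeat.
Window of the largest fold: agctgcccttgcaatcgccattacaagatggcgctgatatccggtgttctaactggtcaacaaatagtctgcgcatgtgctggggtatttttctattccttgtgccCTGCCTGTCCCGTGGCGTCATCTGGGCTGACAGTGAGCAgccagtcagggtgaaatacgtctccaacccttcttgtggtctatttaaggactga
Its site differs from the reporter site by A12G and T31C.

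The mm9 assembly held 339 copies of this site with up to 8 mismatches and no gap, and 279 of them (82.3%) lay inside the window of a Gm13157 peak. Per the paper, a read with several equally good matches was placed at 1 of them at random. A copy can thus hold reads of a near-identical copy, and the part of this in the shares of copies in peaks was not tested. Of the 443 peaks 279 held the site, a share of 63.0% (58.3 to 67.5%). The share of copies in a peak differed by number of mismatches. Of the copies with 0 to 3 mismatches 232 of 241 were in a peak, which is 96.3% (93.0 to 98.3%). Of those with 4 to 6 mismatches 46 of 86 were, which is 53.5% (42.4 to 64.3%). Of those with 7 to 10 mismatches 14 of 68 were (20.6%, 11.7 to 32.1%), with 0 of 9 at 7 mismatches but 4 of 6 at 9, so the share did not fall at every step. A large group of 4593 further copies had 11 or 12 mismatches, and 21 of them (0.457%, 0.283 to 0.698%) were in a peak. Of these 21 copies 20 lay in peaks that held a closer match once gaps or a cut site were allowed (altered sites), and the other in a peak with a copy of up to 8 mismatches. Altered sites also occurred among peaks with 9 or 10 mismatches, as at chr12:63150936-63151135 (9) and near Nebl (10).

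**Figure D1:**
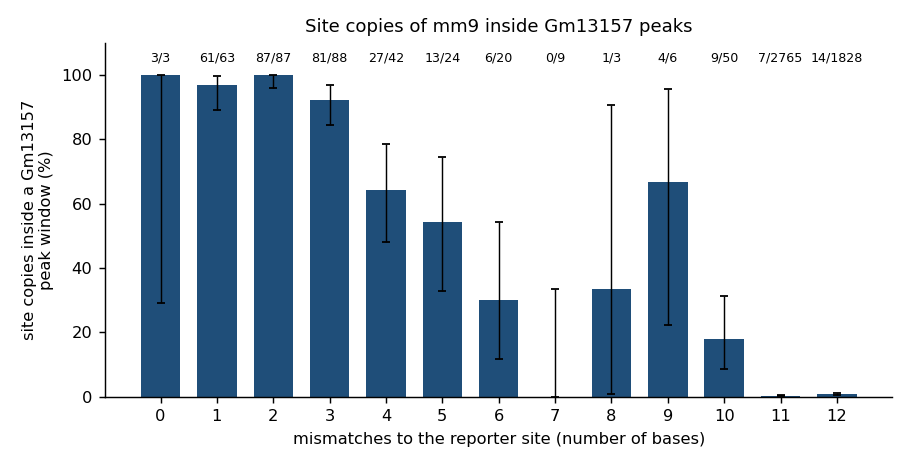
Share of the mm9 copies of the reporter site that lay inside a Gm13157 peak window (y axis, percent) by number of mismatches (x axis); bars give the share, error bars the exact 95% binomial interval, and the numbers above count copies in peaks and all copies. The share fell from 61 of 63 copies with 1 mismatch to 6 of 20 copies with 6, while 4 of 6 copies with 9 mismatches and 7 of 2765 with 11 were in a peak.

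The 9 copies with up to 3 mismatches that missed a peak window were not all without a peak. For 5 of them a Gm13157 summit lay 96 to 142 bp from the site centre, so that the window did not hold the whole site. These included both copies with 1 mismatch, chr8:74425464-74425502 and chr14:20056028-20056066. The other 4 copies, with 3 mismatches each, were 5754 bp or more from any Gm13157 summit. They were chr7:12535058-12535096, chr9:5033348-5033386, chr12:116778711-116778749 and chr13:13139965-13140003. None of these 9 copies had an assembly gap within 1 kb.

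Fold enrichment over the local background, as given by MACS14, followed the same order. The 3 exact copies, chr5:25391311-25391349, chr8:55009111-55009149 and chrX:144111447-144111485, lay in peaks of 190.45, 203.59 and 141.2 fold. Their 2 autosomal peaks stood between genes, with Actr3b (an actin-related protein) and Vegfc (a lymphangiogenic growth factor) as the nearest protein-coding starts. The median fold was 125 over 61 peaks with 1 mismatch, 99.2 over 87 peaks with 2, 62.4 over 81 peaks with 3, 52.5 over 27 peaks with 4 and 45.97 over 13 peaks with 5. The ranges overlapped widely, for instance 22.99 to 197 fold at 1 mismatch and 23.9 to 222 fold at 3. Peaks with 6 mismatches were few, with a median of 73.5 fold over 6 peaks. The peak windows also differed in how repetitive they were. Their median 24-mer was found 21, 24 and 19 times in mm9 at 0, 1 and 2 mismatches. At 3, 4, 5 and 6 mismatches it was found 13, 14, 15 and 11 times, and 42 times in the 1 peak with 8. The authors' alignment kept each read at 1 position, so reads of near-identical copies were divided among them, and the part of this in the fold was not tested.

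**Figure D2:**
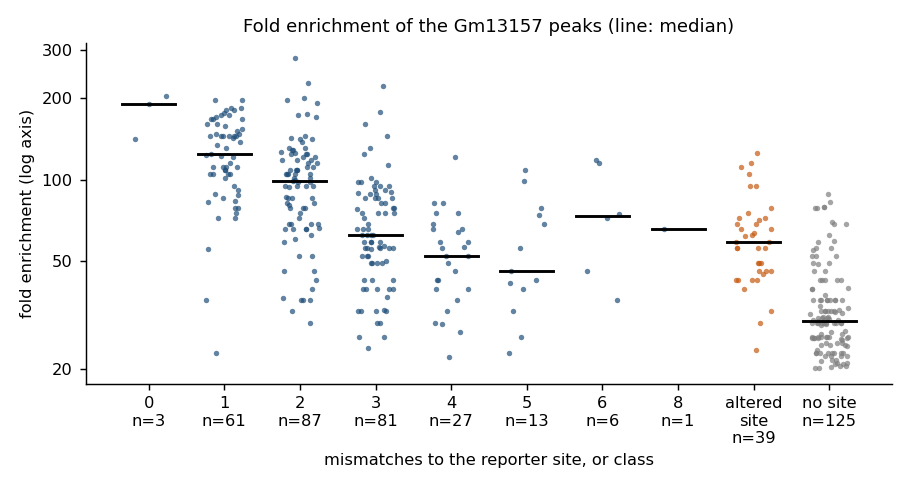
Fold enrichment of each Gm13157 peak (y axis, log scale) by the mismatches of its best site, for peaks with a gapped or partial site (altered site) and for peaks without a site; points are peaks, black lines medians, and n the number of peaks. The medians fell from 190 fold with an exact site to 45.97 fold at 5 mismatches, and the 125 peaks without a site had a median of 30.1 fold.

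Over all 443 peaks the median fold was 62.4, the lowest 20.2 and the highest 281. That highest value was also the largest among all 67 KRAB-ZFPs, where the next was 212 for Gm21082. The median peak held 44 tags, from 11 to 451, and was called over 379 bp. The false discovery rate was above 0 for 109 peaks and reached 0.35% at most.

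The site copies fell into 164 different sequences, of which 13 occurred in 5 copies or more and made up 150 copies. For 4 of them a copy of large fold is shown, with the bases that differ from the reporter site in capitals.
A12G, chr14:68620726-68620764, minus strand: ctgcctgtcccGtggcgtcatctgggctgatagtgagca
C11T and A12G, chr8:41829704-41829742, plus strand: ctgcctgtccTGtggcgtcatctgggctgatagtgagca
A12G and A32G, chr1:31493579-31493617, plus strand: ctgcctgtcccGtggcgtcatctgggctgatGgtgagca
A12G, C16T and G29A, chrX:52605538-52605576, plus strand: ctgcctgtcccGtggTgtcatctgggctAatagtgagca
The base of the reporter site at position 12 was the rarer form, as 287 of the 339 copies carried A12G. Copies with A12G as the only change were the largest group, with 42 of 43 in a peak and a median of 144 fold (88.7 to 197). The 7 copies with C11T and A12G were all in peaks, at a median of 171 fold (127 to 200). All 22 copies with A12G and A32G were in peaks too, at 107 fold (65.7 to 138), and so were the 13 copies with A12G and G17A, at 115 fold (65.7 to 141). The 8 copies with A12G and C16T had a median of 49.3 fold (29.6 to 108), and the 11 copies with A12G, C16T and G29A had 32.8 fold (26.3 to 52.5). The ranges of that last group and of the A12G copies did not overlap. The median 24-mer of the last group was found 13 times in mm9, against 37 times for the A12G copies. All 11 copies of the last group stood on X, 10 of them in duplicated segments described below. Sequence, place and the division of reads among near-identical copies cannot be told apart here.

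Among the 339 copies, 11 substitutions were carried by at least 10 copies. Among these A12G, G17A, A32G, C16T, C11T and G29A went with peaks at 54.3% to 83.3% of their carriers. G29A had 38 of 70 carriers in peaks and A32G 103 of 152, while copies with the reporter base at position 32 were in peaks in 176 of 187 cases. The other 5 were below. G15A had 5 of 25 carriers in peaks (20.0%, 6.83 to 40.7%), G7C and T21C had 4 of 16 each (25%, 7.27 to 52.4%), A36G had 4 of 15 (26.7%, 7.79 to 55.1%) and G14A 8 of 17 (47.1%, 22.98 to 72.2%). Without the change at position 15, 270 of 310 copies were in peaks.

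These substitutions came in linked sets and in copies with more mismatches overall. G7C and A36G stood together in 13 copies, of which 3 were in a peak, and G15A and T21C stood together in 14 copies, of which 2 were. G7C and G14A stood together in 9 copies, none of them in a peak, and the 8 carriers of G14A without G7C were all in peaks. Carriers of G15A had a median of 6 mismatches. Copies with any of the 5 and 4 to 8 mismatches were in peaks in 11 of 42 cases (26.2%, 13.9 to 42.04%), and copies with none of the 5 and the same number of mismatches in 36 of 56 (64.3%, 50.4 to 76.6%). The 5 were picked by their low shares in these same copies, so this gap is a description and no independent evidence. With at most 3 mismatches, 9 of 10 carriers were in a peak, but 8 of the 10 carried G14A, all 8 in peaks. G7C and G15A had 1 such copy each, that with G15A in a peak, and T21C and A36G had none. The effect of each base alone was not tested, because the carriers share descent. The sequence group C11T, A12G, G15A, C16T, G29A and A32G had 6 copies, none of them in a peak. The closest carriers outside the peaks are shown with the changed bases in capitals.
With G7C, chr13:13139965-13140003, plus strand: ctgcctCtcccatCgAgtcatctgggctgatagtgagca
With G15A, chr11:7948245-7948283, plus strand: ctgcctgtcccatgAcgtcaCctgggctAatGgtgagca
With A36G, chr8:69892397-69892435, plus strand: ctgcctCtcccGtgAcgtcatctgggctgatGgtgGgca
The distant copies carried 11 majority changes, G7T, T8C, A12G, G15A, T21A, G24C, T28C, A32G, T34G, G35C and A36T. Exactly this sequence was present in 2099 copies, none of which was in a peak (up to 0.143% with a count of 0). It differs from the reporter site at 4 of the 5 bases capitalised there.
Most frequent distant copy, chr1:4122446-4122484, minus strand: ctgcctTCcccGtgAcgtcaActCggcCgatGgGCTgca

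The flanks of the 153 copies with up to 2 mismatches were used to draw the repeat around the site. The unit ran as far as the majority base was shared by at least 50% of copies, on average over short stretches. It had 341 bp, with the site at positions 130 to 168. Of the 443 peaks, 348 aligned with this unit (78.6%, 74.4 to 82.3%), including all 279 peaks with the site. Summits were concentrated on the site. In the 279 peaks the summit lay at a median of 1 bp from the site centre, with quartiles of -18.5 and 14 bp along the strand of the site, and 249 (89.2%, 85.01 to 92.6%) lay within 50 bp of it. These offsets were bounded by definition, as a peak held the site only if all 39 bases lay in its 200-bp window. They ran from -80 to 79 bp, and peaks with a summit farther from a site were not among the 279. On the unit, 175 of the 331 summits that fell within the aligned part were inside the 39 bases.

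**Figure D3:**
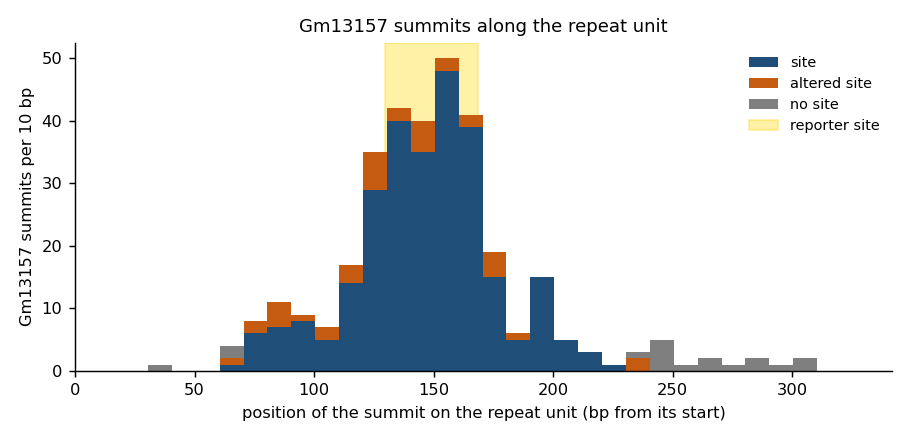
Number of Gm13157 summits per 10 bp (y axis) by position on the 341-bp repeat unit (x axis, bp), coloured by whether the peak held the site, an altered site or none; the yellow band marks the reporter site at positions 130 to 168. Of the 331 summits shown, 249 lay in the site or within 20 bp of it.

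The unit matched 8267 places of at least 100 bp in mm9, mostly at modest identity of the aligned part (median 78.1%). Most covered only part of the 341 bp, with a median length of 175 bp (quartiles 169 and 185). Of these repeat copies 345, or 4.17%, had a Gm13157 summit inside or within 100 bp. When gaps in the site were allowed, 432 copies held it with a local alignment score of at least 46 (a perfect site scores 78), and 341 of those had a summit (78.9%, 74.8 to 82.7%). Of the 7835 other copies 4 had a summit (0.0511%, 0.0139 to 0.131%). Matches that did not span the site could fall among these 7835. Identity over the aligned part of the repeat and presence of the site mostly ran together. At 80 to under 85% identity, 6 of 11 copies with the site had a summit and 0 of 861 without it (up to 0.348% with a count of 0). At 85 to under 90% identity these numbers were 57 of 94 and 0 of 16. Under 75% identity 4 of 429 copies had a summit, and at 75 to under 80% 5 of 6565 had one. Below 80%, most copies with the site had no summit, and all 4 copies without the site but with a summit were there.

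Bases added to or lost from the site separated copies further. The 9 copies with 1 more base had a summit in 2 cases (22.2%, 2.81 to 60.01%). All 18 copies with 10 more bases inside the site had a summit (81.5 to 100%), at 29.6 to 75.5 fold with a median of 53.7. Of the 38 copies with 2 more bases 22 had one (57.9%, 40.8 to 73.7%), at a median of 59.2 fold. Among these, copies whose added bases aligned after base 14 had a summit in 11 of 12 cases and copies with the addition after base 15 in 5 of 17; the place of an added base in an alignment can be ambiguous by a base or more. Of the 24 copies with 1 base fewer, 21 lacked it after base 23, in the run of G that is followed by ctgat, and none of those 21 had a summit (up to 14.3% with a count of 0). The median number of other mismatches was 4 in the copies with 1 base fewer and 1 in those with 1, 2 or 10 more. The added bases are in capitals below.
With 10 more bases, chr19:9339888-9339936, plus strand, 75.5 fold: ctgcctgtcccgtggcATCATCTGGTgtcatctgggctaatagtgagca
With 2 more bases, chrX:111881413-111881453, plus strand, 125 fold: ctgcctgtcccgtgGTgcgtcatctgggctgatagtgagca
With 2 more bases and no summit, chr11:13566881-13566921, minus strand: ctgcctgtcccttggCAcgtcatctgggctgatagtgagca
With 1 base fewer and no summit, chrX:8192052-8192089, minus strand: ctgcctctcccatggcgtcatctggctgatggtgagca
In all, 39 peaks held no ungapped site in their window but a match with a gap or over part of the site (altered site, alignment score of at least 46), with a median of 59.1 fold. The 5 largest by fold of the peaks without the ungapped site were all in this class. They lay near Ube2dnl (125 fold), Gm11145 (115 fold), Nebl (112 fold), Zfp882 (105 fold) and Oprl1 (95.2 fold). The peak near Zfp882 had no added or lost base, as its window cut through an ungapped copy with A12G alone, 96 bp from the summit.

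Bound repeat copies often came in pairs on the same strand. There were 55 pairs of neighbouring bound copies 1 to 10 kb apart on the same strand, with spacings of 3653 to 8724 bp and a median of 5754 bp, and 0 such pairs on opposite strands. Within a pair the larger fold was a median of 1.51 times the smaller (1.00 to 3.67). Reads that match both copies of a pair equally well were placed at random, so whether each copy was bound by itself was not tested. Of the 443 summits, 121 lay within 10 kb of another Gm13157 summit, a share of 27.3% (23.2 to 31.7%).

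The KRAB-ZFP whose summits stood most often near the bound repeat copies was Zfp808, which was assayed in F9 cells with a C-3XHA tag and an HA antibody. Of the 341 bound copies 128 (37.5%, 32.4 to 42.9%) had a Zfp808 summit more than 200 bp and up to 10 kb away, and these were 81 of its 544 peaks (14.9%), as both copies of a pair can have the same one. The next KRAB-ZFPs had far fewer. Counted over the 318 Gm13157 peaks with a site or altered site, Zfp808 stood near 121, Gm14406 near 21 of them with 5685 peaks in all, and Gm14419 near 19 with 3906. The Zfp808 summits fell at certain distances along the strand of the repeat. In 70 copies the nearest one was downstream, at a median of 1046 bp (quartiles 921 and 1647), and in 58 it was upstream, at a median of 4821 bp (quartiles 4228 and 4890). None of the downstream ones was closer than 790 bp and none of the upstream ones closer than 3388 bp. Of the 55 pairs 46 had a Zfp808 summit between both repeat copies. Copies with the site and no Gm13157 summit had a Zfp808 summit as near in 24 of 91 cases (26.4%, 17.7 to 36.7%), and copies without the site in 98 of 7835 (1.25%, 1.02 to 1.52%).

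**Figure D4:**
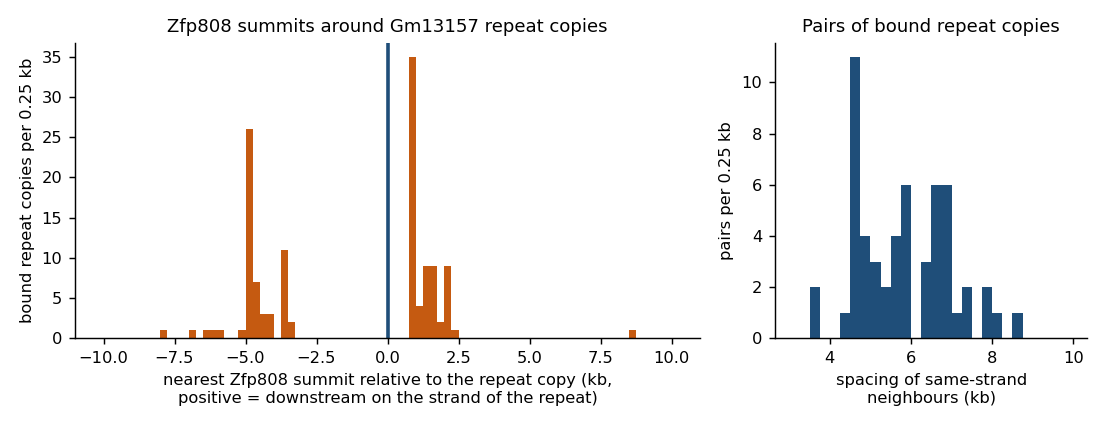
Left, position of the nearest Zfp808 summit relative to each bound repeat copy (x axis, kb along the strand of the repeat, blue line at the copy; y axis, copies per 0.25 kb); right, spacing of same-strand pairs of bound copies (x axis, kb; y axis, pairs per 0.25 kb). The 70 downstream summits had a median of 1046 bp and the 58 upstream ones of 4821 bp, and the pairs were 3653 to 8724 bp apart.

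At an overlap of at least 25% of the 200-bp windows, 31 of 443 Gm13157 peaks (6.998%, 4.80 to 9.79%) were shared with any of the 66 other KRAB-ZFPs. The same share was not computed for the other KRAB-ZFPs, so whether it is low among them is not known. Only 1 of the 279 peaks with the site was shared, the peak between genes near Erc2 (222 fold), with Zfp935. None of the 39 altered-site peaks was (up to 7.69% with a count of 0). Among 52568 peaks of the other KRAB-ZFPs, that Zfp935 peak was the only one that held the site, and of the 20285 peaks of the other FLAG samples none did (up to 0.0148% with a count of 0). The best alignment score in those was 38.

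The 125 peaks without a site were a different set. They had a median of 30.1 fold (20.2 to 88.7) and 17 tags, against 82.6 fold and 63 tags for the peaks with the site, and 84 of them had a false discovery rate above 0 against 21 of 279. Of these, 30 (24%, 16.8 to 32.5%) were shared with another KRAB-ZFP, 13 of them with Gm13251 and 4 each with Gm13225 and Zfp882, all FLAG samples. No other KRAB-ZFP shared more than 3. The 13 peaks were 0.394% of the 3300 peaks of Gm13251, and the 4 peaks were 4% of the 100 peaks of Zfp882. The 4 peaks called in 4 or more other KRAB-ZFPs had no site. They lay near Tram1 (26.2 fold) and Gm447 (24.97 fold), with 5 other KRAB-ZFPs each, and near Hspa4 (33.2 fold) and in an intron of 1700030G06Rik (20.8 fold), with 4 each.

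Part of this set still belonged to the repeat. Of the 125 peaks 30 aligned with the unit, 14 of them with a site copy within 1 kb, and their median was 42.7 fold (22.99 to 79.1). The 95 others had a median of 29.5 fold, and all 30 shared peaks were among these 95. The largest outside the repeat was in a coding exon of Rexo2 (an RNA exonuclease), at 88.7 fold and 138 bp from its transcript start. It is shown because it was the strongest peak with neither site nor repeat, and its best site alignment scored 22.
Rexo2 window, chr9:48288478-48288677, plus strand: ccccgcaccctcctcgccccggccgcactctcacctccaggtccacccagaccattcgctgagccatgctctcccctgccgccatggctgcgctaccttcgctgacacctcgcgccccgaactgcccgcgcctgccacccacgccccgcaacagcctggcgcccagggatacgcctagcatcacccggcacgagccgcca

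The X chromosome held 59 of the 443 peaks (13.3%, 10.3 to 16.8%) and 6.28% of mm9. The same held for the site itself, as 59 of its 339 copies were on X (17.4%, 13.5 to 21.9%). Copies on X were in a peak in 49 of 59 cases (83.1%, 71.0 to 91.6%), and copies elsewhere in 230 of 280 (82.1%, 77.1 to 86.4%). Of the peaks without a site, 5 of 125 were on X (4%, 1.31 to 9.09%). Part of the X copies lay in duplicated segments. Both flanks of a copy, each taken from 500 to 1500 bp from the site, shared at least 50% of their 24-mers with those of another copy in 31 of 59 cases on X (52.5%, 39.1 to 65.7%) and in 54 of 280 elsewhere (19.3%, 14.8 to 24.4%). All 11 copies with A12G, C16T and G29A stood in one such array, on the plus strand between chrX:51581814 and 53004208, and 10 of them shared both flanks. All 11 were in peaks, of 26.3 to 52.5 fold. Without the copies in shared flanks, X held 28 of 254 site copies (11.02%), 19 of them in peaks. After X, the most peaks were on chromosomes 7 and 12, with 36 each, and chromosome 12 had 30 site copies, 26 of them in peaks. Chromosome Y had 2 peaks, with 1 of its 7 site copies in a peak.

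Set against the other FLAG samples, Gm13157 had the highest share of peaks on X and the highest median fold. The exact permutation test of 1 sample against 17 cannot go below p = 0.111 (two-sided), so no difference could reach 0.05, and 8 measures were compared. On X, Gm13157 had 13.3% against 1.57 to 9.64% in the others (exact p = 0.111, adjusted 0.356). Its median fold of 62.4 compared with 11.8 to 61.2, the highest of which belonged to Gm13051 (exact p = 0.111, adjusted 0.356). In multi-copy sequence, defined as windows whose median 24-mer occurs at least 10 times in mm9, lay 58.2% of its peaks against a median of 11.9%, and Gm21082 with 91.9% was the only sample above it (exact p = 0.222, adjusted 0.356). Gm21082 was also the only sample with a larger share of summits within 10 kb of another, 63.2% against 27.3% (exact p = 0.222, adjusted 0.356), but with p under 1e-10 and enrichment over 20 in all samples 2 of 16 others were higher (exact p = 0.353, adjusted 0.565). Gm13157 had 20.1% of its peaks inside a gene, where only Gm13051 with 18.7% was lower and the others reached 64.7% (exact p = 0.222, adjusted 0.356). Its 5.87% within 1 kb of a transcript start lay among the others, 12 of which were higher (exact p = 0.667, adjusted 0.889). Median GC, 49.5% against 43 to 64% (exact p = 0.889), and median called width, 379 bp against 137 to 2310 bp (exact p = 1), were also within their range. Only 12 of the 18 samples shared the thresholds of Gm13157, and the others had looser ones.

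**Figure D5:**
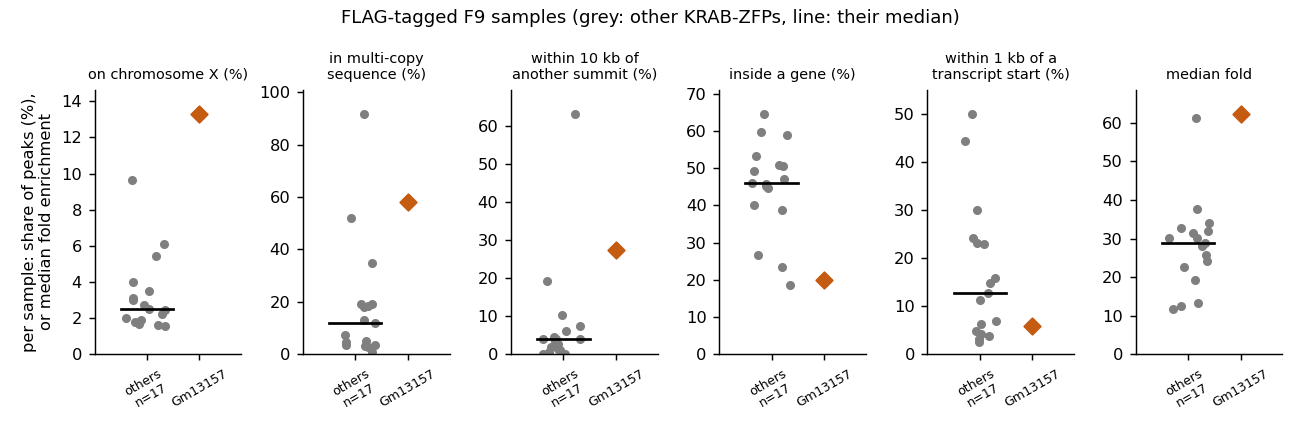
Share of peaks (percent) and median fold enrichment per sample on y axes that start at 0, for Gm13157 (orange diamond) and the 17 other FLAG-tagged F9 samples (grey points, black line their median). Gm13157 was highest for chromosome X with 13.3% and for median fold with 62.4, and second highest for multi-copy sequence with 58.2% and for summits within 10 kb of another with 27.3%.

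Peaks with the site were seldom near transcript starts. Nearness to starts was not computed for all site copies or all repeat copies, so avoidance by the bound ones was not tested. Only 1 of 279 lay within 1 kb of any annotated transcript start (0.358%, 0.00907 to 1.98%) and 0 within 1 kb of a protein-coding one (up to 1.08% with a count of 0), while 25 of the 125 peaks without a site did (20.0%, 13.4 to 28.1%), 22 of these at protein-coding genes. Inside a gene lay 39 of the 279, every one of them in an intron, and 46 of the 125. The median distance to a transcript start was 44010 bp for peaks with the site and 15812 bp for peaks without. The 29 bound repeat copies inside protein-coding genes stood on the opposite strand of the gene in 22 cases (75.9%, 56.5 to 89.7%), and the 1429 repeat copies without the site inside such genes in 1068 (74.7%, 72.4 to 77.0%). Of the 6 such copies with the site and no summit 2 did (33.3%, 4.33 to 77.7%).

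The 10 peaks of largest fold all held the site with up to 3 mismatches, and 9 of them lay between genes. The first, at 281 fold with 303 tags, was the intronic one in Gm454, 2443 bp from its transcript start. It was followed by peaks nearest to Opa1 (227 fold, a mitochondrial fusion GTPase) at chr16:29699131-29699330, Erc2 (222 fold, a presynaptic scaffold protein) at chr14:28389347-28389546, Vegfc (204 fold) and Adam25 (200 fold). The peaks nearest to Dock5, Gm9733 and 4930542N07Rik had 197 fold each, Gemin8 192 and Actr3b 190. The distances from summit to protein-coding transcript start in these 9 were 7838 bp (Adam25) to 244433 bp (Gemin8).

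Of the 22 peaks within 1 kb of a protein-coding transcript start, none held a site and none of the 10 largest reached 100 fold. After Rexo2 came Arhgap12 (79.3 fold, a GTPase-activating protein), Cyp51 (68.6 fold, an enzyme of cholesterol synthesis), Uba1 (59.1 fold, the ubiquitin-activating enzyme) and Penk (42.7 fold, the precursor of enkephalin). Rad52, Hspa4, Gga2, 9630014M24Rik and Arl15 had 30.7 to 33.5 fold. The Rexo2 peak was the only one in a coding exon.

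Among 22238 protein-coding genes, 311 (1.4%) had a Gm13157 summit within 50 kb of a transcript start. The median gene was 2.89e+06 bp from the nearest summit. Of 397 zinc finger genes 11 had one (2.77%), at a median distance of 2.14e+06 bp, but these 11 went back to 8 summits, 5 of which held a site or altered site. Zfp882, Zfp617, Zfp709 and Zfp961 are all on chromosome 8, and Zscan4b, Zscan4e and Zscan4f, genes of the 2-cell-like state, on chromosome 7. The closest of the listed genes were Zfp600, a KRAB-ZFP gene on chromosome 4, at 6076 bp, Zfp882 at 6928 bp and Zfp617 at 6955 bp. None of 23 pluripotency genes, which included Pou5f1, Sox2 and Nanog, and none of 26 genes of KAP1 and heterochromatin, which included Trim28, Setdb1 and Dnmt1, had a summit within 50 kb. Lists of this size hold less than 1 gene at the background share.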

How the data were processed

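Per the labels, reads of the Gm13157 ChIP were mapped to mm9 with Bowtie (-5 3 --best) and peaks were called against F9_Input and FLAG_control (MACS 1.4.2 in the submitters' processing notes), at p under 1e-10 and enrichment over 20. The authors deposited 1 table of 53255 peaks, set to 200 bp around the summit, of which 244 matched no label. Per peak it gives window positions, width and summit offset in bp, a raw tag count, a score (the MACS p-value as 10 times its negative log10), a fold ratio over the local background and a false discovery rate in percent, all deposited as the authors' own values. Each KRAB-ZFP has 1 sample without replicates.

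Sequence came from NCBIM37 (mm9) and genes from GENCODE vM1; the reporter site was read from the study's supplementary table. The site was matched on both strands with up to 12 mismatches, 8 in the main count. Gapped matches used Biopython 1.88 local alignment (match 2, mismatch -2, gap opening -5, extension -1). The repeat unit is the majority base at each position. It was extended from the site while the mean agreement of the copies over a short stretch was at least 50%. Copies of the unit were found with blastn 2.17.0+ and joined within 60 bp. 24-mers were counted over mm9. Steps were tested on simulated data. A sample was compared with the others by an exact two-sided permutation test with Benjamini-Hochberg adjustment, a share by an exact binomial interval, and a count of 0 by 3 counts. Peaks were named by rank of fold, place at starts or in coding exons, sharing and lack of the site, and the gene named is the host gene or else that of the nearest protein-coding transcript start. The members, lists and comparisons were chosen with earlier results of these data known. Repeat annotation was not used here, so repeats are named only as the study named the site. One named peak is not reported here.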

Additional observations from a re-analysis of the deposited data

How the results depend on the processing

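The tested differences from the other FLAG samples kept their direction with all 57 other F9 samples, with p under 1e-10 and enrichment over 20 in all samples, and without Gm13152, except median GC, which was 0.324 points below the mean of the others and rose to 2.29 above it with all F9 samples and 0.563 above it without Gm13152. With all F9 samples the smallest possible p was 0.0345, reached by the share on X and the median fold, and no measure passed 0.05 after adjustment (0.138 for both). The share in multi-copy sequence moved from 58.2% to 68.2% with at least 5 copies, 0% with at least 100, 74.0% at enrichment over 50 and 43.3% in 400 bp. The share on X was 17.6% among peaks with the site. The share of peaks with the site moved from 63.0% to 68.4% with up to 12 mismatches, 84.2% at enrichment over 50 and 71.8% with gaps allowed, an alternative added after the data were seen. The share of site copies in peaks moved from 82.3% to 91.5% with up to 4 mismatches and to 6.28% with up to 12, which adds the distant copies. The share near transcript starts moved from 5.87% to 12.2% at 5 kb and 1.89% at enrichment over 50, that inside genes from 20.1% to 14.7% at enrichment over 50, that near another summit from 27.3% to 11.3% at 5 kb, and that of genes near a summit from 1.4% to 0.324% at 10 kb. Library depth was not known, so sites below the thresholds cannot be told from unbound ones. Nor can they be told from mm9 copies that the F9 genome may lack. No paired analysis was possible because each KRAB-ZFP has 1 sample.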

Other observations

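Of the 121 Gm13157 summits with another within 10 kb, 14 had it within 1 kb and 107 at 1 to 10 kb. Of the 125 summits without a site, 18 lay within 1 kb of a copy of the site and none between 1 and 10 kb.

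Among the 13 site sequences present in 5 copies or more, the sequence with G17A alone had 4 of its 6 copies on X, and the sequence with A12G, G14A and G17A had 5 of 5 there. All copies of both were in peaks, at 78.5 to 112 fold for the first and 23.9 to 56.5 fold for the second.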
